A study of Mus musculus with 8 samples.

Results

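The clustered protocadherin genes are the 57 protein-coding genes of mouse chromosome 18 whose names start with Pcdha, Pcdhb or Pcdhg in the GENCODE M21 annotation, out of 21938 protein-coding genes on chromosomes 1 to 19, X and Y. There were 14 Pcdha genes (chr18:36930184-37187661), 22 Pcdhb genes (chr18:37264938-37524479) and 21 Pcdhg genes (chr18:37661793-37841873), all on the plus strand of mm10. Genes were counted by identifier, since the annotation gives the name Pcdha11 to 2 of them, which are called here the first and the second Pcdha11 in their order along the chromosome. Peaks came from 8 ChIP-seq libraries of the E14Tg2a mouse embryonic stem cell line at passages 37 to 40, 1 library for each of FGFR1, RXR and Nur77 in ESCs maintained in LIF, 1 library for each of RXR, Nur77 and histone H3.3 in NCs, and 2 libraries for FGFR1 in NCs, of which replicate 2 is titled as a second experiment. NCs were cells without LIF that had received 1 µM retinoic acid (RA) for 48 h. Each ChIP used chromatin pooled from several culture plates, and all libraries came from this 1 cell line. The peak lists hold no RNA levels, and neither the expression of the genes nor the neuronal state of the NCs was analysed here.

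Clustered protocadherins are adhesion proteins of neurons. Each Pcdha and Pcdhg messenger joins 1 variable exon, which encodes the whole extracellular part, the membrane span and part of the cytoplasmic tail, to constant exons at the end of its cluster, whereas Pcdhb genes consist of a single such exon. Every variable exon has its own promoter, neurons choose among these promoters, and CTCF and cohesin take part in that choice by bringing distant enhancers to them. The C-type genes Pcdhac1, Pcdhac2, Pcdhgc3, Pcdhgc4 and Pcdhgc5 stand apart from this choice and are expressed widely in neurons.

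The libraries differed in depth and in the kind of sites they held. The lists held from 10634 peaks (H3.3) to 46137 (FGFR1 in RA, replicate 1), and replicate 2 of that group held 14082. The background recovered from the deposited values, a measure of depth, was lowest for H3.3, at 1.27 fragments per kb, and highest for RXR in LIF, at 7.09. An alternating purine-pyrimidine run of 20 bp or more (a tract) lay in 1.26% of the peaks of FGFR1 replicate 2 and in 21.1% to 51.7% of the peaks of the other lists. Peak width had a median of 311 bp in replicate 2 and of 89 to 140 bp in the others, so it stands apart from the other libraries. Its own value is given beside each mean over the FGFR1 libraries from RA, and counts over the 8 lists include it.

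Peaks were rare at the proximal promoters of the members, and in 4 libraries most of those in the clusters lay inside the variable exons. Over the 8 lists, 165 peaks fell in the span from the first to the last member (chr18:36930184-37841873), and the summits of 119 of them lay in the coding part of a variable exon. The share was 77.1% in RXR from LIF, 83.3% in Nur77 from LIF, 83.0% in FGFR1 replicate 1 and 75% in Nur77 from RA. It was 50% in FGFR1 from LIF, 25% in FGFR1 replicate 2, 30% in RXR from RA and 33.3% in H3.3, which had 3 to 10 peaks in the span. Joined where they shared at least 1 bp, the 165 peaks made 84 distinct sites, of which 44 were seen in 1 library, 18 in 2, 12 in 3, 6 in 4, 1 in 5, 2 in 6 and 1 in 7. In all, 40 of the 57 members had a peak in the variable exon, and 11 of these 40 also had a peak within 1000 bp of a start. The same peak can count in both. Shares of other genes are given below by library and were not taken over the 8 lists together.

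With all peaks counted, the span was denser in peaks than the genome in every list but that of H3.3. In LIF the FGFR1 library had 8 peaks in the span, or 8.77 per Mb (95% exact Poisson interval 3.79 to 17.3) against 4.17 per Mb genome-wide. RXR in LIF had 35 peaks, or 38.4 per Mb (26.7 to 53.4) against 11.2. Nur77 in LIF had 30 peaks, or 32.9 per Mb (22.2 to 47.0) against 8.31. These intervals cover counting error only, and neighbouring peaks are not independent.

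In RA, FGFR1 replicate 1 had 47 peaks, or 51.6 per Mb (37.9 to 68.6) against 16.9 genome-wide, whereas replicate 2 had 8 peaks, or 8.77 per Mb (3.79 to 17.3) against 5.16. RXR in RA had 10 peaks, or 11.0 per Mb (5.26 to 20.2) against 5.59. Nur77 in RA had 24 peaks, or 26.3 per Mb (16.9 to 39.2) against 9.54, and H3.3 had 3 peaks, or 3.29 per Mb (0.679 to 9.62) against 3.90. The genome-wide density lay below the interval of the span for RXR and Nur77 in LIF and for FGFR1 replicate 1 and Nur77 in RA and inside it for FGFR1 in LIF, FGFR1 replicate 2, RXR in RA and H3.3. Among the 10634 strongest peaks of each library the direction turned for RXR in LIF and FGFR1 replicate 1, each at 3.29 per Mb in the span against 3.90, while Nur77 had 5.48 against 3.90 in LIF and 11.0 against 3.90 in RA.

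**Figure D1:**
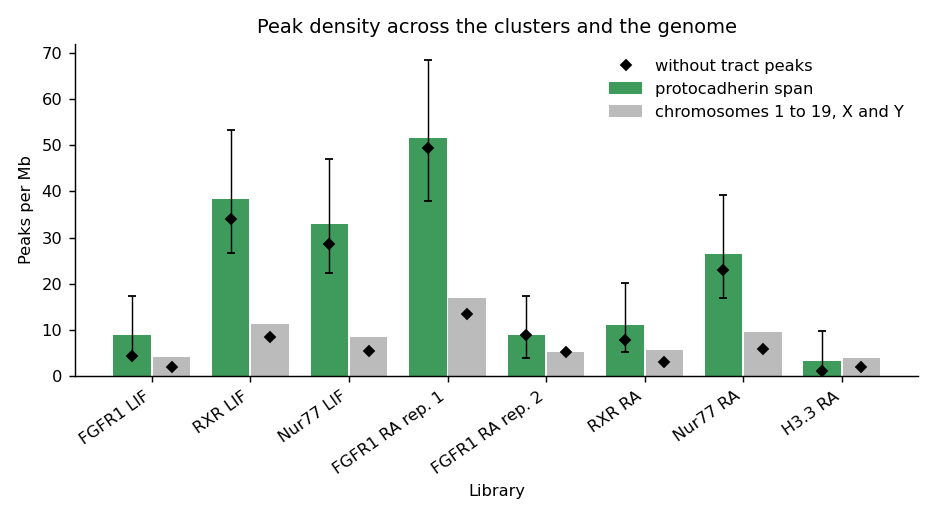
Peaks per Mb (vertical axis) in the span of the 3 clusters (green bars, with exact Poisson intervals at 95%) and over chromosomes 1 to 19, X and Y (grey bars) in each library; diamonds leave out peaks with a tract. With all peaks counted the green bar is the higher one in every library but H3.3, with 51.6 per Mb in FGFR1 replicate 1 at the top.

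Between LIF and RA, the peaks across the clusters went from 35 to 10 for RXR and from 30 to 24 for Nur77. For FGFR1 they went from 8 to 47 in replicate 1 and stayed at 8 in replicate 2, a mean of 27.5 ± 27.6 (SD, n = 2). The FGFR1 difference between states was thus smaller than the spread between the 2 RA libraries, and 1 library against 2 allowed no useful test. RXR and Nur77 had 1 library per state, which allowed none. With 10634 peaks in every library the directions turned, with 3 and 4 peaks for RXR in LIF and RA, 5 and 10 for Nur77, and for FGFR1 7 in LIF against 3 and 5 in replicates 1 and 2. At a −log10 p of at least 10 Nur77 turned too, from 12 to 14. The depth moved with the RXR counts, at 7.09 fragments per kb in LIF and 1.87 in RA, and its part in them was not tested. For Nur77 the depth was 4.98 and 3.82, and for FGFR1 2.71 in LIF, 4.16 in replicate 1 and 6.78 in replicate 2.

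The proximal promoter of a member was the window of 1000 bp to either side of any of its annotated transcript starts, and a member was bound where a peak overlapped that window by at least 20 bp. FGFR1 in LIF bound 1 of 57 members, beside 17.0% of all protein-coding genes bound by the same rule (the background). RXR in LIF bound 5 members (background 42.5%), and Nur77 in LIF bound 4 (background 25.5%). In RA, FGFR1 bound 5 members in replicate 1 (background 50.7%) and 3 in replicate 2 (background 49.6%), a mean of 4 ± 1.41 (SD, n = 2). Both RA libraries lay above the 1 member of LIF, whereas among the 10634 strongest peaks each of these 3 libraries bound 1. RXR in RA bound 1 member (background 23.3%), Nur77 in RA bound 1 (background 25.8%), and H3.3 bound none (background 15.5%).

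As shares of the 57 members these counts are 1.75% to 8.77% in the 7 libraries with any bound member. The exact Clopper-Pearson interval at 95%, which covers counting error only, reached at most 19.3% in RXR from LIF and FGFR1 replicate 1. The share of all genes bound lay above the members' interval in each of the 8 libraries, and leaving out tract peaks changed no count of bound members. A gene with more annotated starts has more windows. The members had 86 starts, and the number of starts was not matched between members and all genes.

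The low promoter counts were shared with some gene families and not with others. The 39 Hox genes, which lie in clusters too, were bound at 3 in FGFR1 from LIF, 24 in FGFR1 replicate 1 and 11 in replicate 2, or 7.69%, 61.5% and 28.2%. The 1135 olfactory receptor genes, another large family of clustered genes with choice among promoters, were bound at 0.0881% to 2.47% in the 8 libraries. The 456 other protein-coding genes of chromosome 18 were bound at 19.5% to 64.5%. Of the 12 non-clustered protocadherins, which are single adhesion genes elsewhere, 0 to 3 were bound per library. These included Pcdh19 in both FGFR1 libraries from RA and Pcdh8 in FGFR1 from LIF.

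**Figure D2:**
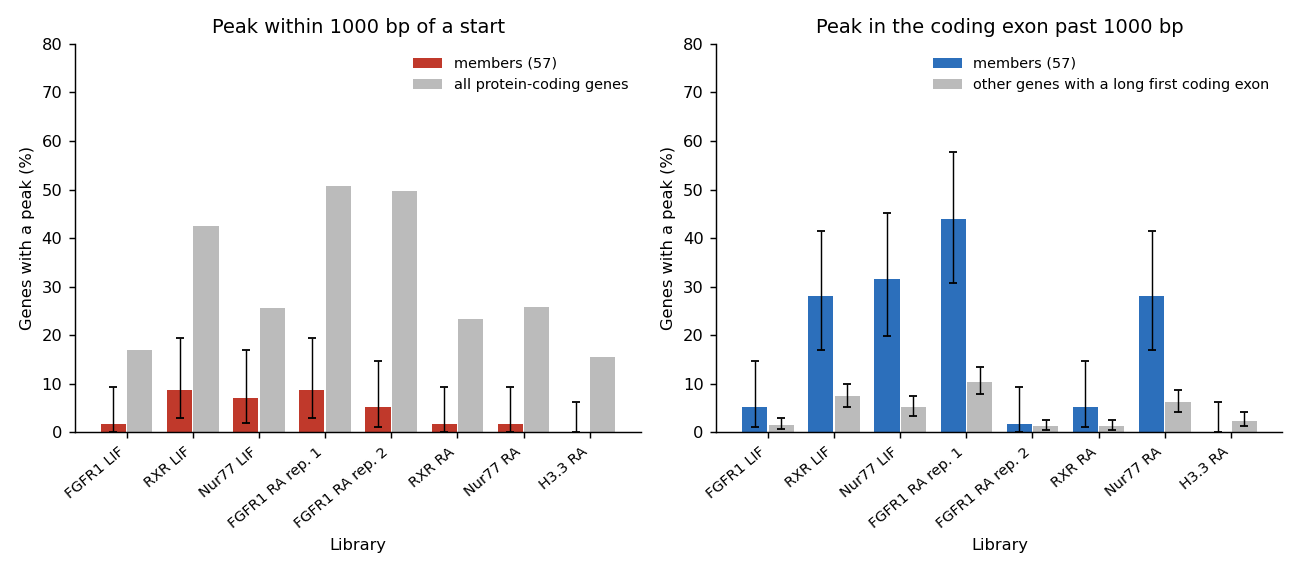
Percent of genes with a peak (vertical axes) in each library, for the window around the start (left; red, the 57 members; grey, all protein-coding genes) and for the coding exon past 1000 bp from the start codon (right; blue, the members; grey, other genes with a coding part of at least 1500 bp in the first coding exon). Lines are exact binomial intervals at 95%; the members lie below the grey bars on the left in all 8 libraries and above them on the right in 7, with none in H3.3.

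The bound promoters were those of 11 members, and the C-type gene Pcdhac1 led them with 4 libraries. Its peak lay just upstream of the start, with the summit 83 bp upstream in RXR from LIF (−log10 p 10.7), 60 bp upstream in FGFR1 replicate 1 (18.8), 62 bp upstream in RXR from RA (8.07) and 39 bp upstream in Nur77 from RA (14.9). These 4 peaks made 1 site (chr18:37089892-37090161), and the libraries without it were FGFR1 and Nur77 in LIF, FGFR1 replicate 2 and H3.3. The summits rested on 6 to 15 fragments. FGFR1 replicate 1 had further peaks in the Pcdhac1 exon, with summits 625 and 1931 bp from the start codon.

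Pcdhac2, the other C-type gene of the alpha cluster, had peaks near the start in RXR from LIF and in FGFR1 replicate 1. The strongest of them had its summit 417 bp downstream of the start in RXR from LIF (−log10 p 9.04) and 555 bp downstream in FGFR1 replicate 1 (9.38). Of the C-type genes of the gamma cluster, Pcdhgc3 was bound in both FGFR1 libraries from RA, at different places. Its summit lay 10 bp from the start in replicate 2 (−log10 p 14.5, 21 fragments) and 802 bp from it in replicate 1 (7.66, 7 fragments). Pcdhgc4, which is needed for the survival of neurons, and Pcdhgc5 had no peak within 1000 bp of a start or in the variable exon in any library, although replicate 2 had a peak 2989 bp past the nearest Pcdhgc5 start (−log10 p 13.5).

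Pcdhga7 was the other member bound in both FGFR1 libraries from RA, and here both peaks met. The summit was 103 bp past the start in replicate 1 (−log10 p 8.47) and 119 bp past it in replicate 2 (10.9). Nur77 in LIF had a separate peak 828 bp past that start (7.64). Replicate 2 also bound Pcdhga2, with the summit 200 bp past the start (8.14).

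The remaining bound promoters were each seen in 1 or 2 libraries. Pcdhb1 had a summit 769 bp past the start in RXR from LIF and 755 bp past it in FGFR1 replicate 1. Pcdhb13 was bound in RXR from LIF, Pcdha6 and Pcdhga5 in Nur77 from LIF, and Pcdhga12 in FGFR1 from LIF through the edge of its window. The second Pcdha11 was bound in RXR and Nur77 from LIF only through an annotated start within its variable exon, so its peaks are exon peaks by position. By cluster, bound members numbered 0 to 3 per library of 14 Pcdha genes, 0 to 2 of 22 Pcdhb genes and 0 to 3 of 21 Pcdhg genes.

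**Figure D3:**
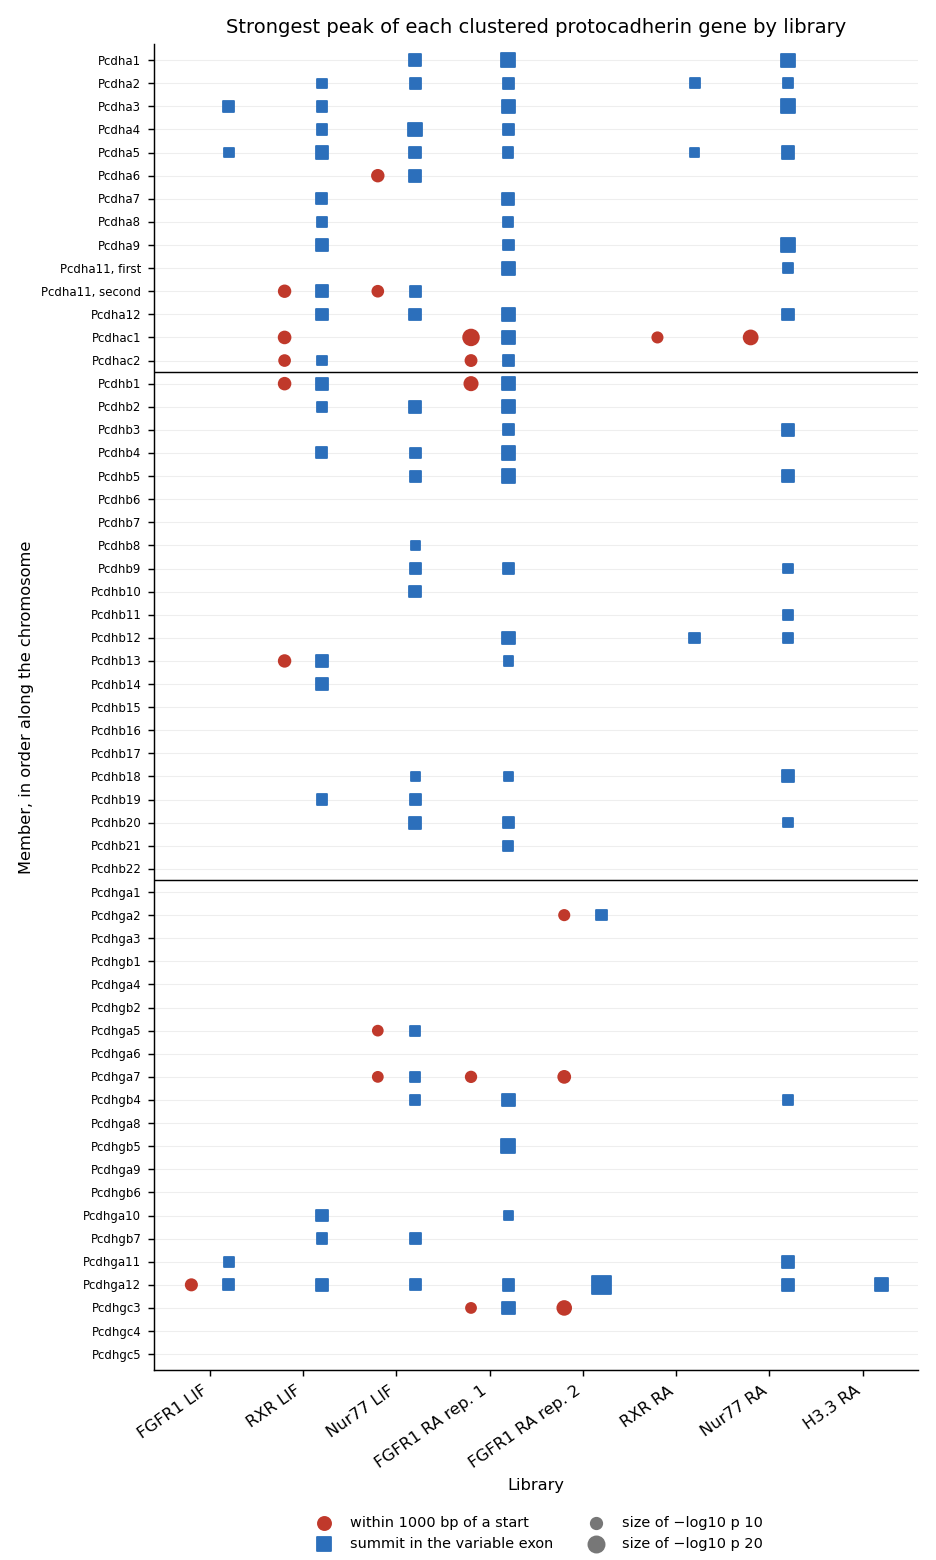
The strongest peak of each of the 57 members (rows, in chromosome order, clusters parted by lines) in each library (columns); circles mark peaks within 1000 bp of a start, squares peaks with the summit in the coding part of the variable exon, and area follows −log10 p. Squares fill the rows of Pcdha and many of Pcdhb in RXR and Nur77 from LIF, FGFR1 replicate 1 and Nur77 from RA, while replicate 2 has peaks at 4 members, all of them Pcdhg genes.

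Inside the variable exons the peaks kept to certain stretches. The coding part of these exons was 2316 to 2562 bp long, with a median of 2397 bp. Of the 119 exon summits, 102 lay more than 1000 bp from the start codon, past the reach of most promoter windows, and 83 (69.7%) lay past 1600 bp. None lay from 800 to 1200 bp. The median position was 1781 bp from the start codon, at 1814 bp in Pcdha, 1851 bp in Pcdhb and 1604 bp in Pcdhg.

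All 14 Pcdha genes had an exon peak in some library, against 16 of 22 Pcdhb and 10 of 21 Pcdhg genes. The gamma cluster was uneven within itself, since 6 of 12 Pcdhga genes, 3 of 6 Pcdhgb genes and 1 of 3 C-type genes, Pcdhgc3, had one. The run of genes from Pcdhb15 to Pcdhb17 and the run from Pcdhga3 to Pcdhgb2 had no peak at a start or in the exon in any library.

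**Figure D4:**
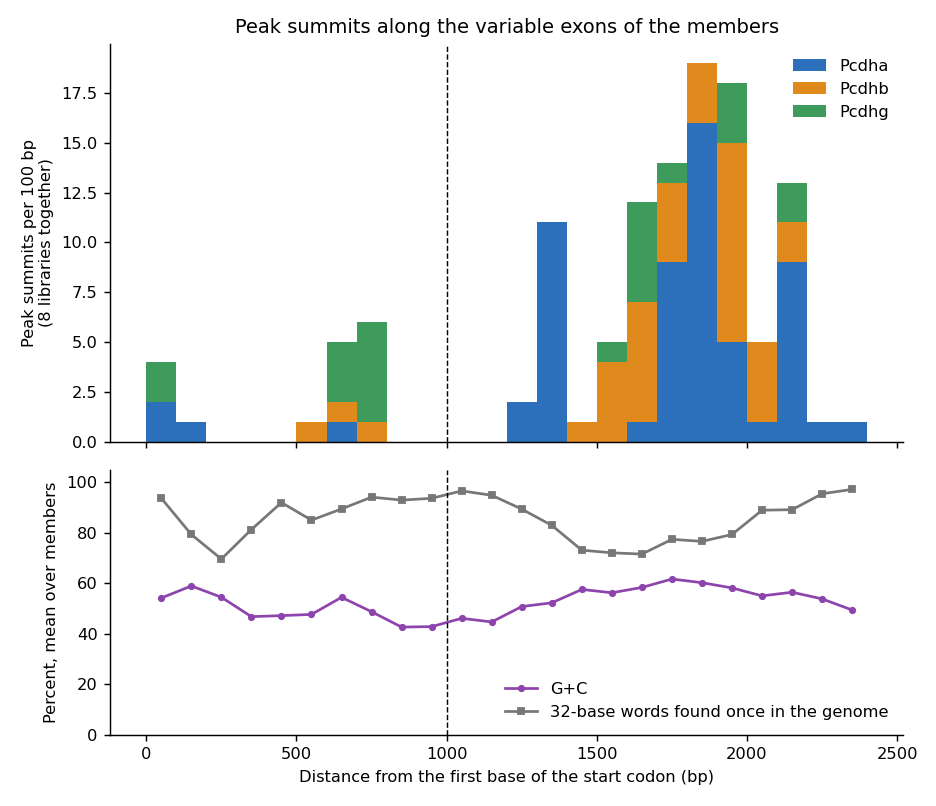
Number of peak summits per 100 bp of coding sequence (top, 8 libraries together, coloured by cluster) and the mean G+C content and share of 32-base words found once in the genome over the members (bottom), by distance in bp from the start codon; the dashed line is at 1000 bp. Summits gather between about 1300 and 2200 bp, with none from 800 to 1200 bp.

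Several neighbouring genes carried peaks at like distances, though not all of them. In Pcdha1 the summits lay 1781 bp from the start codon in Nur77 from LIF, 1815 bp in FGFR1 replicate 1 and 1844 bp in Nur77 from RA. In Pcdha2 they lay at 1864, 1817 and 1784 bp in the same libraries, at 1698 bp in RXR from RA and at 2118 bp in RXR from LIF. In Pcdha3 the FGFR1 library from LIF had its summit at 1816 bp, and in Pcdha5 at 1786 bp. Between these genes, Pcdha4 had its strongest summits at 1307 bp in Nur77 from LIF and 1301 bp in FGFR1 replicate 1, and at 1773 bp in RXR from LIF. Pcdha7 had its strongest at 1290 bp in RXR from LIF and 1301 bp in FGFR1 replicate 1, and the 4 summits of the first Pcdha11 ran from 1306 to 1988 bp.

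Pcdha5 was the member with exon peaks in most libraries past 1000 bp, 6 of 8, and had 3 sites. The site at chr18:36962159-36962401 was seen in FGFR1, RXR and Nur77 from LIF and in FGFR1 replicate 1 and Nur77 from RA. Another, 1315 to 1327 bp from the start codon (chr18:36961711-36961856), was seen in Nur77 from LIF and in FGFR1 replicate 1, RXR and Nur77 from RA. The last was a peak of RXR from LIF alone, 2195 bp from the start codon (−log10 p 10.4). FGFR1 replicate 2 and H3.3 had none of them.

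The exon peaks were weak, in lists whose typical peaks were not much stronger. Median −log10 p over whole lists was 10.4 to 11.8, and median summit fragments 9 to 12, save in replicate 2 (19.5 and 27). For the exon peaks −log10 p ran from 5.18 to 26.4 with a median of 9.24. Their summits rested on a median of 9 fragments (5 to 33). The strongest of them was a peak of replicate 2 in Pcdhga12, 2142 bp from the start codon (−log10 p 26.4, 33 fragments), within 1000 bp of a start of the antisense gene Gm26672. The others stayed at a −log10 p of at most 15.6, reached by Nur77 from RA in Pcdha3. None of the 119 exon peaks held a tract.

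Of the 64 sites in variable exons, 35 were seen in 1 library, 12 in 2, 12 in 3, 3 in 4, 1 in 5 and 1 in 6. The site in 6 libraries was in Pcdhga12 (chr18:37766737-37766960), nearer to the start codon than most. Its summits lay 702 bp from the start codon in FGFR1 from LIF, 736 bp in RXR from LIF, 685 bp in Nur77 from LIF, 712 bp in FGFR1 replicate 1, 691 bp in Nur77 from RA and 762 bp in H3.3, with −log10 p of 9.17 to 12.8. The antisense gene Gm26672 has a start within 1000 bp of all of these summits, and which of the 2 genes the peak belongs to cannot be told apart. The same holds for some exon peaks of Pcdha6, Pcdha7, the second Pcdha11, Pcdha12, Pcdhb12 and Pcdhgc3, near starts of other genes. Among them are the promoter peaks of Pcdha6 in Nur77 from LIF and of Pcdhgc3 in FGFR1 replicate 1.

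To set the exon peaks against other genes, a gene was called where a peak overlapped by at least 20 bp the coding part of its first coding exon past 1000 bp from the start codon, in genes where the whole coding part of that exon was at least 1500 bp long. This measure was chosen after the positions of the peaks had been seen, so its counts are a description. There were 559 such genes, the 57 members and 502 others. FGFR1 in LIF called 3 members (5.26%) and 7 others (1.39%), beside 1.79% of the 559 genes. RXR in LIF called 16 members (28.1%) and 37 others (7.37%), beside 9.48% of all. Nur77 in LIF called 18 members (31.6%) and 26 others (5.18%), beside 7.87% of all.

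In RA, FGFR1 replicate 1 called 25 members (43.9%) and 52 others (10.4%), beside 13.8% of all 559 genes, and replicate 2 called 1 member (1.75%) and 6 others (1.20%), beside 1.25%. RXR in RA called 3 members (5.26%) and 6 others (1.20%), beside 1.61%. Nur77 in RA called 16 members (28.1%) and 31 others (6.18%), beside 8.41%. H3.3 called no member and 12 others (2.39%), beside 2.15%. The exact binomial intervals of members and others did not overlap in RXR and Nur77 from LIF, FGFR1 replicate 1 and Nur77 from RA. In the other 4 libraries they overlapped. These intervals cover counting error only and take genes as independent, though the exons of the members are related. With the measure set on these same data, they are no test of a difference.

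The stretch searched was longer in the members, with a median of 1397 bp against 1007 bp in the others, so summits were also counted per length. In RXR from LIF the members had 288 summits per Mb of this sequence and the others 55.1, a ratio of 5.22. The ratio was 6.79 in Nur77 from LIF, 5.19 in FGFR1 replicate 1 and 4.93 in Nur77 from RA. With 3 or fewer summits in the members, it was 4.20 in FGFR1 from LIF, 3.60 in RXR from RA and 2.10 in FGFR1 replicate 2, and H3.3 had no summit in the members and 12 in the others. With peaks of a −log10 p of at least 10 only, RXR in LIF called 6 members (10.5%) and 9 others (1.79%), Nur77 in LIF 7 (12.3%) and 5 (0.996%), FGFR1 replicate 1 13 (22.8%) and 26 (5.18%), and Nur77 in RA 8 (14.0%) and 15 (2.99%). Among the 10634 strongest peaks of each library 0 members were called in RXR from LIF beside 0.598% of the others, 1 (1.75%) beside 0.797% in Nur77 from LIF, 0 beside 0.996% in FGFR1 replicate 1 and 4 (7.02%) beside 1.20% in Nur77 from RA. The intervals of members and others overlapped in all 4 libraries at this setting.

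The G+C content was higher in the part of the exons that held most summits, but not stretch by stretch. Over the members the G+C content averaged 50.3% in the first 1600 bp and 56.6% past that, and the exon peaks themselves had a median of 61.1%. CpG dinucleotides numbered 3.47 per 100 bp in the first 1600 bp and 3.84 past it. The part of G+C content in the exon peaks was not tested.

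Because the authors discarded reads that could be placed more than once, near-identical exons can lose reads. Of all 32-base words in the exons, a median of 83.4% occurred once in the genome in the members and 100% in the other chromosome 18 genes with such an exon (n = 13). The share was 78.5% in Pcdha, 83.2% in Pcdhb and 96.6% in Pcdhg. Within 100 bp of the exon summits it was 96.5% in the median, with a lowest value of 37.6%. Members with an exon peak past 1000 bp in any library (n = 35) had a median of 81.0%, and those with none (n = 22) 93.4%. These groups differed in make-up. All 12 Pcdha genes outside the C-type had such a peak (median 78.0%), against 3 of 12 Pcdhga genes (median 97.6%). The pooled contrast thus cannot be told apart from subtype, and the part of uniqueness in the peaks was not tested.

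Around the starts, the windows had a median G+C content of 42.9% in the members and 49.3% in the 456 other chromosome 18 genes, with a CpG observed over expected ratio of 0.483 and 0.427. The median share of words found once was 93.9% in the members and 99.2% in the others. The 11 members bound in any library had a median G+C content of 45.2% and the 46 unbound members 42.5%. The 5 C-type windows had the highest G+C content, 51.4% in the median, and all 5 lay at or above 50.2%.

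The core word of the CTCF motif, AGNNGGCGC, was searched on both strands, and it is a description of the sequence and not of binding. It was found in the windows of 12 of 14 Pcdha genes, 3 of 22 Pcdhb genes and 2 of 21 Pcdhg genes, or 29.8% of members against 23.9% of the other chromosome 18 genes. In the Pcdha exons the word recurred at 461 bp from the start codon in 6 members, Pcdha4, Pcdha5, Pcdha6, Pcdha7, Pcdha8 and Pcdha12, and at 452 to 551 bp in Pcdha1, Pcdha3, Pcdha9 and the first Pcdha11. No peak of any library covered a word at these places. In 6 Pcdhb genes it stood at 2023 bp, in Pcdhb14, Pcdhb15 and Pcdhb17 to Pcdhb20.

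The word at Pcdhac1 was covered by a peak in each of the 4 libraries that bound this promoter, and it stands 67 bp upstream of the start. Of the 20 words in the members' windows no other was covered by a peak. Of the 35 words in the exons 5 were covered, each in 1 library, in Pcdha2, Pcdhb4, Pcdhb8, Pcdhb14 and Pcdhga12. Windows reach into the exons, so some words are in both counts.

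The strongest peaks of the clusters were tract peaks outside coding sequence. In every library but FGFR1 replicate 2 the strongest peak of the span lay in the untranslated end of Pcdhb22 (chr18:37521680-37522055), at a tract of 190 bp, the longest of the span. Its −log10 p was 169 in FGFR1, 71.4 in RXR and 78.0 in Nur77 from LIF. In RA it was 124 in FGFR1 replicate 1, 97.2 in RXR, 138 in Nur77 and 115 in H3.3, and its summit held 62 to 128 fragments over the 7 libraries. Replicate 2 had no peak there.

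The next tract sites were weaker. A tract between Pcdhga5 and Pcdhga6 (chr18:37698697-37698888, 55 bp) had peaks in 6 libraries with −log10 p of 14.6 to 19.2, missing Nur77 from LIF and FGFR1 replicate 2. A tract inside Pcdhac2, past its variable exon (chr18:37177138-37177309) had peaks in the 3 libraries from LIF and in RXR from RA, with −log10 p of 8.47 to 24.7. In total 4 of 8 peaks of FGFR1 from LIF in the span held a tract, 4 of 35 of RXR from LIF, 4 of 30 of Nur77 from LIF, 2 of 47 of FGFR1 replicate 1, 0 of 8 of replicate 2, 3 of 10 of RXR from RA, 3 of 24 of Nur77 from RA and 2 of 3 of H3.3.

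The span was itself poor in tracts, with 110 of them or 121 per Mb against 215 per Mb genome-wide. Of the 110, 10 lay under a peak in some library, and these had a median length of 53.5 bp against 35.5 bp for the 100 without a peak. Replicate 2 had no peak at any of the 110 tracts, and the other libraries had one at 4 to 7 of them.

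**Figure D5:**
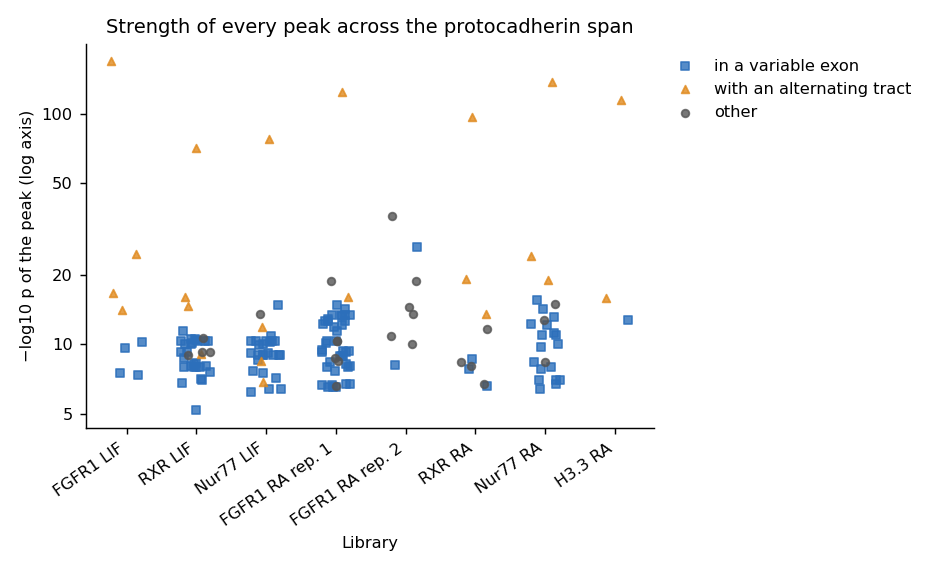
−log10 p (vertical axis, logarithmic) of every peak in the span by library, with exon peaks as blue squares, other peaks with a tract as orange triangles and all remaining peaks as grey circles (points spread sideways for legibility). The single triangle at the top of 7 libraries, from 71.4 to 169, is the Pcdhb22 site, and the squares lie below 16 apart from 1 in FGFR1 replicate 2.

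FGFR1 replicate 2 had its peaks elsewhere in the span. None of its 8 peaks fell in Pcdha or Pcdhb, 5 fell in Pcdhg and 3 between the clusters. The strongest (−log10 p 36.2, 41 fragments) was at the start of Taf7, a subunit of the general transcription factor TFIID, which lies between the beta and gamma clusters and whose nearest member start is that of Pcdhga1. Others lay at the starts of Slc25a2, a mitochondrial carrier gene (10.0), and of 3222401L13Rik (18.8). Replicates 1 and 2 shared 3 sites, at Slc25a2, Taf7 and Pcdhga7, which is 6.38% of the 47 sites of replicate 1 and 37.5% of the 8 of replicate 2. The Taf7 site was also seen in RXR and Nur77 from RA.

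The share of sites seen in both states was bounded by lists of unlike length. RXR shared 4 sites between LIF and RA, 11.8% of its 34 sites in LIF and 40% of its 10 in RA. Nur77 shared 12, 40% of 30 and 50% of 24. FGFR1 in LIF shared 6 of its 8 sites (75%) with replicate 1, which is 12.8% of the sites of that library, and none with replicate 2. The sites RXR shared included the tract sites at Pcdhb22, between Pcdhga5 and Pcdhga6 and inside Pcdhac2. Those of FGFR1 included the sites at Pcdhb22, between Pcdhga5 and Pcdhga6, and upstream of Pcdhgc3, where the LIF peak held a tract. Of the tract sites Nur77 shared only that at Pcdhb22. The parts of list length, depth and tracts in these shares were not tested.

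Genes whose products act on the clusters or downstream of their proteins were counted by the same promoter rule. The list held 18 genes, among them Ctcf, the cohesin genes and their loaders and releasers, and the DNA methyltransferases. It also held Smchd1, Setdb1, Rest, Wiz and the kinase genes Ptk2 and Ptk2b. FGFR1 bound 4 of the 18 in LIF, 15 in replicate 1 and 14 in replicate 2. RXR bound 12 in LIF and 6 in RA, Nur77 bound 8 and 6, and H3.3 bound 5. For FGFR1 these are 22.2% in LIF beside 17.0% of all genes, 83.3% beside 50.7% in replicate 1 and 77.8% beside 49.6% in replicate 2. For RXR they are 66.7% beside 42.5% in LIF and 33.3% beside 23.3% in RA, for Nur77 44.4% beside 25.5% and 33.3% beside 25.8%, and for H3.3 27.8% beside 15.5%. The exact binomial interval of the list held the share of all genes in each library except FGFR1 replicate 1 (58.6% to 96.4%) and replicate 2 (52.4% to 93.6%). These intervals take the 18 genes as independent draws, and the list was chosen with earlier results of these data known. They are thus no test of whether FGFR1 favours these genes. Ctcf was bound in Nur77 from LIF and in both FGFR1 libraries from RA. The cohesin subunit gene Rad21 was bound in RXR from LIF and in both FGFR1 libraries, RXR and Nur77 from RA. Smchd1, whose product silences clustered genes, was bound in RXR from LIF and in both FGFR1 libraries, Nur77 and H3.3 from RA. Ptk2, which encodes the focal adhesion kinase, was bound in 7 libraries, and its relative Ptk2b in none.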

How the data were processed

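Peak lists of 8 ChIP-seq libraries were used, 1 per group except FGFR1 in RA (2 libraries). The authors aligned reads to mm10 with Bowtie 1.0, discarding reads that could be placed more than once, and ran MACS2 on each library at a p limit of 1e-05, with no control named and no pooling. The deposited fold is the ratio of the summit pileup to the local background, with 1 added to each. The lists also hold −log10 p and −log10 q at the summit as the authors deposited them. The deposited score equals 10 × −log10 p cut to a whole number in 100% of peaks and was not used further. Depth is not stated in the lists. Fragments at each summit and the background were solved from fold and −log10 p (a solution within 0.002 for 100% of peaks in each library), and the lowest background divided by the smallest peak width gave fragments per kb. Lists of peaks pass a p limit, so an absent peak is no measurement of absence.

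Members, starts and exons came from GENCODE M21 on GRCm38, whereas the study used UCSC known genes. Peaks were matched to windows by at least 20 bp and joined into sites by at least 1 bp. Word uniqueness used 32-base words over chromosomes 1 to 19, X and Y. Python 3 scripts used numpy, pandas, scipy and numba, and were tested on simulated data. No test was run, since no group but FGFR1 in RA had 2 libraries and genes are not replicates. No sequence is printed.

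The members and gene lists were chosen with earlier results of these data known. Genes named by rule were the C-type genes, members bound in both FGFR1 libraries from RA or in at least 4 libraries (Pcdhga7, Pcdhgc3, Pcdhac1), and the members nearest to the strongest peak of each library (Pcdhb22, Pcdhga1). Other names were chosen after their values were seen. Alternatives were stricter limits (−log10 p from 10 up, −log10 q from 2 up), an equal number of 10634 peaks, a window of 500 bp, summits in the window, tract peaks left out, and summits within 100 bp.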

Additional observations from a re-analysis of the deposited data

Results flagged for a closer look

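Among the members with a promoter peak, FGFR1 rose from LIF to RA in both of its RA libraries (by 4 and by 2, from 1), whereas RXR fell by 4 (from 5 to 1) and Nur77 fell by 3 (from 4 to 1). The LIF counts of RXR and Nur77 both include the second Pcdha11, bound only through an annotated start within its variable exon. The mean change of FGFR1 exceeded that of RXR by 7 members and that of Nur77 by 6. These were set apart because the groups moved in opposite directions, and the difference was not tested. With 10634 peaks in every library it was not seen, since FGFR1 then bound 1 member in each of its 3 libraries, RXR 0 in both states, and Nur77 0 in LIF and 1 in RA. Over all protein-coding genes the share bound moved the same way for FGFR1 (17.0% to 50.7% and 49.6%) and for RXR (42.5% to 23.3%), while it was 25.5% and 25.8% for Nur77. The depth of RXR moved with its counts, from 7.09 to 1.87 fragments per kb, and its part was not tested.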

How the results depend on the processing

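Leaving out tract peaks or asking for a −log10 q of at least 2 changed no count of members with a promoter peak by over 1.5 times, and joining summits within 100 bp gave 87 sites in place of 84. With a −log10 p of at least 10, the members with a promoter peak were 0 in FGFR1 from LIF, 1 in Nur77 from LIF, 2 in FGFR1 replicate 1 and 0 in RXR from RA. With 10634 peaks in every library they were 0 in RXR and 0 in Nur77 from LIF, 1 in each FGFR1 library from RA and 0 in RXR from RA. The window of 500 bp gave 0 in FGFR1 from LIF, 3 in RXR from LIF and 2 in FGFR1 replicate 1, and asking for the summit in the window gave 0 in FGFR1 from LIF. The FGFR1 mean in RA ranged from 3 without replicate 1 to 5 without replicate 2. Peaks across the clusters at a −log10 p of at least 10 were 5 in FGFR1, 15 in RXR and 12 in Nur77 from LIF, and 23 in FGFR1 replicate 1, 4 in RXR and 14 in Nur77 from RA. With equal numbers of peaks they were 7 in FGFR1, 3 in RXR and 5 in Nur77 from LIF, and 3 and 5 in FGFR1 replicates 1 and 2, 4 in RXR and 10 in Nur77 from RA. Without tract peaks they were 4 in FGFR1 from LIF and 1 in H3.3. Members with a peak in the exon past 1000 bp were, at a −log10 p of at least 10, 1 in FGFR1, 6 in RXR and 7 in Nur77 from LIF, and 13 in FGFR1 replicate 1, 0 in RXR and 8 in Nur77 from RA. With equal numbers they were 0 in RXR and 1 in Nur77 from LIF, and 0 in FGFR1 replicate 1, 0 in RXR and 4 in Nur77 from RA. The exon measure and its alternatives were chosen after seeing the data. The order of LIF and RA in peaks across the clusters turned for RXR, Nur77 and FGFR1 with equal numbers of peaks, and for Nur77 at a −log10 p of at least 10. Stricter limits keep fewer peaks by construction.

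No paired analysis was possible because replicate 2 exists for FGFR1 in RA alone. Most exon peaks rest on fewer than 14 fragments, peaks were called without a control, and each group but 1 has a single library, so differences between LIF and RA carry no replicate error.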
